A study of Homo sapiens with 2 samples.

Results

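The genes described here are 8 genes of cholesterol synthesis and of its control by the sterol regulatory element binding protein SREBP-2: SREBF2, INSIG1, HMGCS1, MVK, IDI1, SQLE, EBP and DHCR7. Their values come from every probe set that the platform annotation pairs with exactly 1 gene, where that gene is one of the 8. This gave 26 probe sets of 8 genes, out of 41091 probe sets of 19775 genes named in the same way. The human esophageal squamous carcinoma line KYSE170-luc, which carries luciferase, was transfected with SOX17 or with an empty vector, and total RNA was taken 12 h later. Each group was 1 array, so the comparison is between 2 arrays, with no replicate and no p-value. The promoter of the plasmid and the share of cells that took it up are not given in the sources used here. SOX17 is a transcription factor of the SOX family, and the comparison asks what differs in these cells after it is introduced.

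Cholesterol is made from acetyl-CoA through mevalonate, the isoprenoid diphosphates, squalene and lanosterol. SREBP-2, the product of SREBF2, is made as a precursor in the membrane of the endoplasmic reticulum, is escorted by SCAP to the Golgi and is cut there by the proteases MBTPS1 and MBTPS2, after which its free part enters the nucleus and activates genes of the pathway. When sterols are plentiful, INSIG1 holds SCAP back, and INSIG1 is itself a target of SREBP. Sets of SREBP target genes are therefore often read as a gauge of how much sterol a cell senses.

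A probe set was counted as measured when its intensity, a brightness on a linear scale, lay at or above a floor of 95 on both arrays. The floor sits at the 60th percentile of the pooled intensities. All 8 genes had at least 1 measured probe set, and 19 of the 26 probe sets were measured. Another 3 lay at or above the floor on the SOX17 array only, 2 on the empty vector array only and 2 on neither. Across the named probe sets of the platform, 3.61% lay at or above the floor on the SOX17 array only and 2.76% on the empty vector array only. Log2 ratios divide the SOX17 value by the empty vector value. A gene is represented by its brightest probe set, and its error is the SD of 1 log2 ratio derived from how far probe sets for a gene disagree, which was 0.35, 0.26 and 0.19 in the lowest, middle and highest tertile of level (4574 genes). That SD covers what differs between probe sets of a gene on these arrays, including any difference in the transcripts they read. It leaves out error that the probe sets of a gene share, and how cultures vary.

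Both arrays had a mean of 500.1 without the lowest and highest 2% of values, and 40.4% of probe sets on the SOX17 array and 39.6% on the empty vector array reached the floor. The transfected gene itself lay under the floor, at 83.8 and 6.5 on the SOX17 array and at 4.5 and 19.1 on the empty vector array for its 2 probe sets, and so gives no check of the labels. On 24 of 24 probe sets the poly-A control transcripts, which are spiked into the RNA, were brighter with SOX17 (median log2 ratio 0.57), and their part in the ratios below was not tested. All 5 squamous epithelial markers with a named probe set were measured on both arrays (KRT5, KRT14, SFN, DSG3 and PERP), as were 1 of 4 leukocyte, 1 of 6 fibroblast, 0 of 4 endothelial and 0 of 4 hepatocyte markers.

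Promoter sequence is shown for the genes with the highest ratios by the brightest probe set (SREBF2 and EBP) and the lowest (INSIG1 and MVK), so that the control elements they carry can be set beside their values. Each is the 250 bases before the transcription start in RefSeq (GRCh38.p14, plus strand), with matches to the sterol regulatory element core TCACNCCAC and to the NF-Y box CCAAT, on either strand, in capitals. The windows lie at chr22:41832855-41833104, chrX:48521558-48521807, chr7:155297628-155297877 and chr12:109573544-109573793, in the order printed.
SREBF2: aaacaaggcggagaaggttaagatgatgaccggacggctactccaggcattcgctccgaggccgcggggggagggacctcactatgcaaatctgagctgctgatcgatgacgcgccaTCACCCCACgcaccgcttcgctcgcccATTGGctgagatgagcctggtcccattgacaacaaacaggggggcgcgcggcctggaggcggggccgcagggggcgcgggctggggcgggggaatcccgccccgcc
EBP: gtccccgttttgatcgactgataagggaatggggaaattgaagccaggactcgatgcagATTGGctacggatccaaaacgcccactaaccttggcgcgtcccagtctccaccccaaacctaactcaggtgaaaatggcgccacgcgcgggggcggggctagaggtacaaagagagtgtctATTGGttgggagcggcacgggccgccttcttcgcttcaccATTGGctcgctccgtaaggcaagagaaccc
INSIG1: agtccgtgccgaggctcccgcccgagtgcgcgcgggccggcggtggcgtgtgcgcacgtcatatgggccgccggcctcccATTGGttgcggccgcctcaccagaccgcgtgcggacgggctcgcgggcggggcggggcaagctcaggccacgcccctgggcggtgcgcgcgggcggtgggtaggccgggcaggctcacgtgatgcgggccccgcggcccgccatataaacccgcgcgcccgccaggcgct
MVK: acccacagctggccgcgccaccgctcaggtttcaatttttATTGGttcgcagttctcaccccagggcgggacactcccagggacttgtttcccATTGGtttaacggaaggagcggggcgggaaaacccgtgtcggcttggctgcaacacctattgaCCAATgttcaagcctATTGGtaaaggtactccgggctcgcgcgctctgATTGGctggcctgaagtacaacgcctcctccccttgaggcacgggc

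The search covered the whole RefSeq window of 250 bases before to 50 after the start and both strands. It used 11 windows of 7 of the 8 genes. Windows on chromosome 8 were left out for the 8 genes, though not for the share of all windows, and SQLE was not searched. Of the 7 genes searched, SREBF2 was the 1 with a match to TCACNCCAC, which began 133 bases before the start. That motif was found in 1.13% of 35116 windows of all genes. Its CCAAT match, on the minus strand, began 106 bases before the start. CCAAT was found in 8 of the 11 windows, against 34.6% of all windows. Each of the 7 genes had it in at least 1 window, a count for which no share over all genes was computed. Some windows of HMGCS1 and of IDI1 overlap in part. The Sp1 box GGGCGG was found in 10 of the 11 windows, against 45.0% of all. The SOX core ACAAT was found in 1 of the 11, a window of IDI1, against 27.4% of all. In that same IDI1 window a plus and a minus strand match to CCAAT overlap in the palindrome ccaattgg. Matches to CCAAT and ACAAT, which end in the same letters, did not overlap each other. These matches describe the sequence and show no binding.

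No member of the set reached a 1.5-fold difference after SOX17 transfection, in either direction. Of all 10034 measured genes, 3.78% were higher with SOX17 by that size and 3.19% lower, so 0 of 8 is close to what that background gives for so few genes. At 2-fold the count was likewise 0 of 8, against 0.419% higher and 0.329% lower. Of the 19 measured probe sets 0 passed 1.5-fold, against 3.96% higher and 4.61% lower among all measured probe sets, and 0 passed 2-fold, against 0.403% and 0.507%. The RNA came from whole cultures, so a change in some cells and a smaller one in all cells cannot be told apart. The log2 ratios of the 8 genes ran from -0.39 for INSIG1 to 0.39 for SREBF2, with 3 genes above 0 and 5 below and a median of -0.06. Over all measured genes the median was 0.03, with 54.6% above 0.

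**Figure D1:**
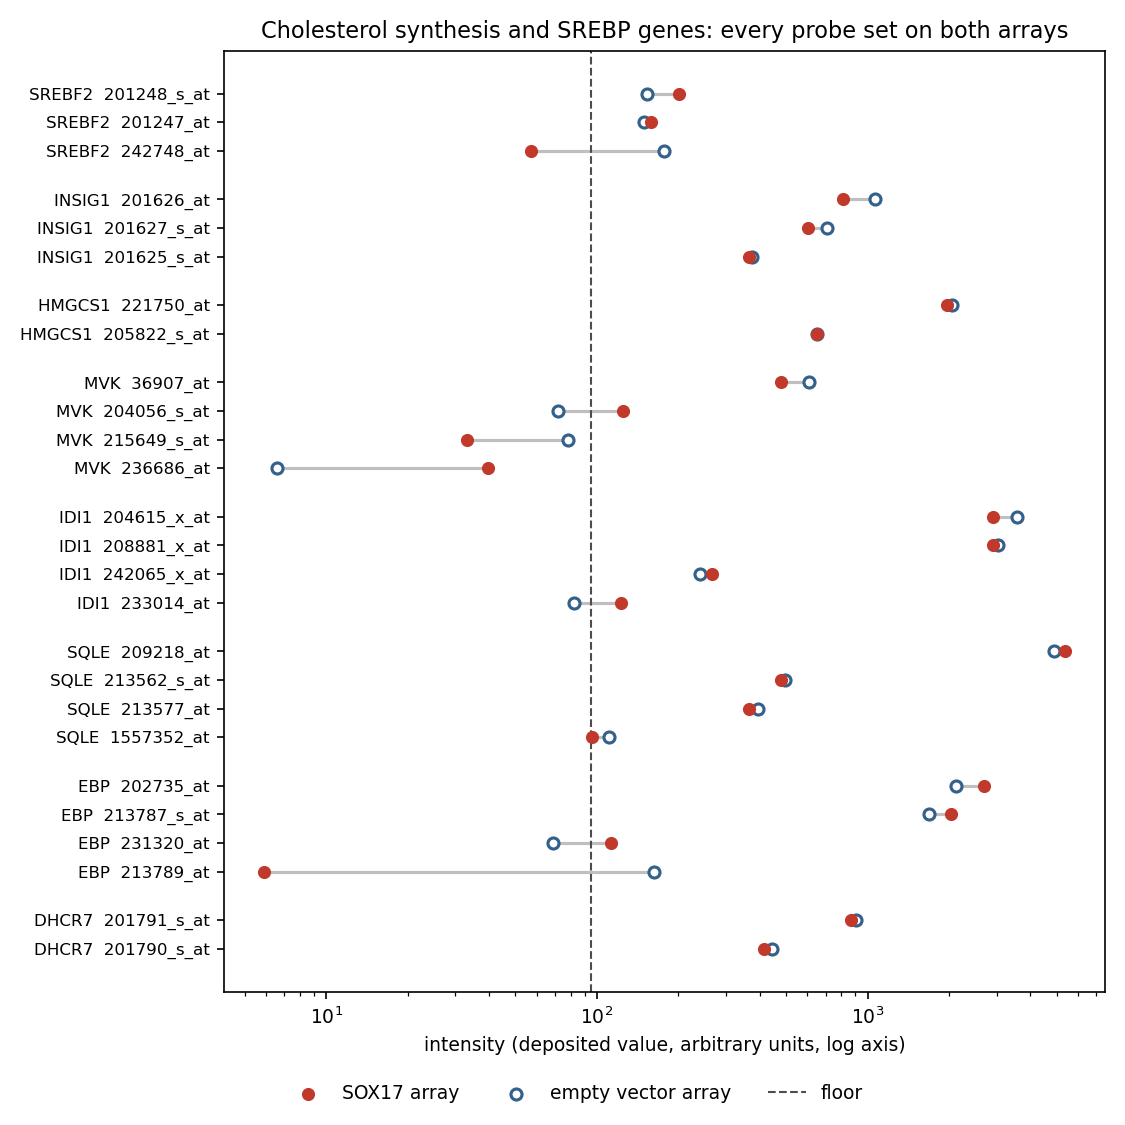
Intensity of each of the 26 probe sets (log axis, arbitrary units) on the SOX17 array (filled) and the empty vector array (open), grouped by gene, with the floor of 95 as a dashed line. The pairs of points lie close together where both exceed the floor, and the wide gaps belong to probe sets with a value below it.

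SREBF2, which encodes the SREBP-2 precursor, had the highest ratio by the brightest probe set, but not by the mean over probe sets or without IDs ending in _x_at or _s_at. Its brightest probe set (201248_s_at) read 201.5 on the SOX17 array and 153.3 on the empty vector array, a log2 ratio of 0.39 ± 0.35 (SD from probe set pairs). The next (201247_at) read 159 on the SOX17 array and 148.8 on the empty vector array, a log2 ratio of 0.10. Both were thus higher on the SOX17 array, by 1.12 and 0.27 SD. The last probe set (242748_at) went the other way, at 57 on the SOX17 array, which is under the floor, and 177.3 on the empty vector array. On it SREBF2 was at least 1.87-fold lower on the SOX17 array, a bound taken against the floor. The probe sets of SREBF2 therefore gave no common direction. Both measured probe sets lay in the lowest tertile of level, where 32.3% of genes had a ratio as far from 0 as the brightest.

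INSIG1, the retention protein that holds back SCAP, had the lowest ratio of the 8 by the brightest probe set. Probe set 201626_at read 811 on the SOX17 array and 1061.1 on the empty vector array, a log2 ratio of -0.39 ± 0.26, or 1.31-fold lower. Probe set 201627_s_at read 600.9 on the SOX17 array and 707.2 on the empty vector array (log2 ratio -0.24). All 3 probe sets were lower on the SOX17 array, but the third (201625_s_at) nearly level, at 365.7 on the SOX17 array and 374.6 on the empty vector array (-0.03). The mean over the 3 was -0.22 ± 0.18 (SD, n = 3 probe sets of the same RNA). Among genes of the same tertile of level, 18.2% had a ratio as far from 0 as the brightest.

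HMGCS1, the cytosolic synthase that makes HMG-CoA and a known SREBP target, was nearly level. Its probe set 221750_at read 1962.5 on the SOX17 array and 2043.3 on the empty vector array, a log2 ratio of -0.06 ± 0.19. Probe set 205822_s_at read 648.9 on the SOX17 array and 651 on the empty vector array (-0.005). Both differences were well within 1 SD.

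MVK, mevalonate kinase, phosphorylates mevalonate. Only 36907_at of its 4 probe sets was measured, at 476.9 on the SOX17 array and 609.7 on the empty vector array, a log2 ratio of -0.35 ± 0.26 (1.28-fold lower). Probe set 204056_s_at read 124.8 on the SOX17 array and 71.6 on the empty vector array, where it missed the floor, a bound of at least 1.31-fold higher with SOX17. The measured value and that bound thus point in opposite directions. The other two probe sets of MVK were below the floor on both arrays and give no fold.

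IDI1, the isomerase that interconverts the isoprenoid building blocks, had probe sets on either side of 0. Probe set 204615_x_at read 2917.8 on the SOX17 array and 3555.1 on the empty vector array, a log2 ratio of -0.29 ± 0.19. Probe set 208881_x_at, of similar brightness, read 2918 on the SOX17 array and 3032.5 on the empty vector array (-0.06). Probe set 242065_x_at was slightly higher on the SOX17 array, at 266.2 against 240.6 on the empty vector array (0.15). The IDs of all 3 end in _x_at, the mark of probes that may bind other transcripts too, and their mean was -0.06 ± 0.22 (SD, n = 3 probe sets). Probe set 233014_at read 122.4 on the SOX17 array and 82.3, under the floor, on the empty vector array, at least 1.29-fold higher with SOX17.

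SQLE, squalene epoxidase, catalyses the first oxygen-dependent step towards sterols. It had 4 measured probe sets, of which the brightest was higher on the SOX17 array and the other 3 lower. The brightest (209218_at) read 5352.8 on the SOX17 array and 4873.8 on the empty vector array, a log2 ratio of 0.14 ± 0.19. The rest had log2 ratios of -0.05 (213562_s_at), -0.11 (213577_at) and -0.20 (1557352_at). Each of the 4 lay within 1 SD of 0, and the mean over them was -0.06 ± 0.14 (SD, n = 4 probe sets), so the sign for SQLE depends on which probe sets are used.

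EBP, the sterol isomerase that moves the ring double bond after lanosterol, was higher on the SOX17 array on both of its bright probe sets. Probe set 202735_at read 2689.1 on the SOX17 array and 2124 on the empty vector array, a log2 ratio of 0.34 ± 0.19 (1.27-fold). Probe set 213787_s_at read 2034.1 on the SOX17 array and 1691 on the empty vector array (0.27 ± 0.19). At 1.83 SD the first was the furthest of the 19 measured probe sets from 0 in units of its error, and 14.9% of genes in that tertile had a ratio as far from 0. A dim probe set agreed in sign and another did not. Probe set 231320_at read 112.7 on the SOX17 array and 68.8 on the empty vector array, at least 1.19-fold higher, while 213789_at read 5.9 on the SOX17 array and 163.2 on the empty vector array, at least 1.72-fold lower.

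DHCR7, which reduces 7-dehydrocholesterol to cholesterol at the end of the pathway, was nearly level. Probe set 201791_s_at read 868.7 on the SOX17 array and 909.5 on the empty vector array, a log2 ratio of -0.07 ± 0.26. Probe set 201790_s_at read 413.3 on the SOX17 array and 442.8 on the empty vector array (-0.10). Both lay well within 1 SD of 0.

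**Figure D2:**
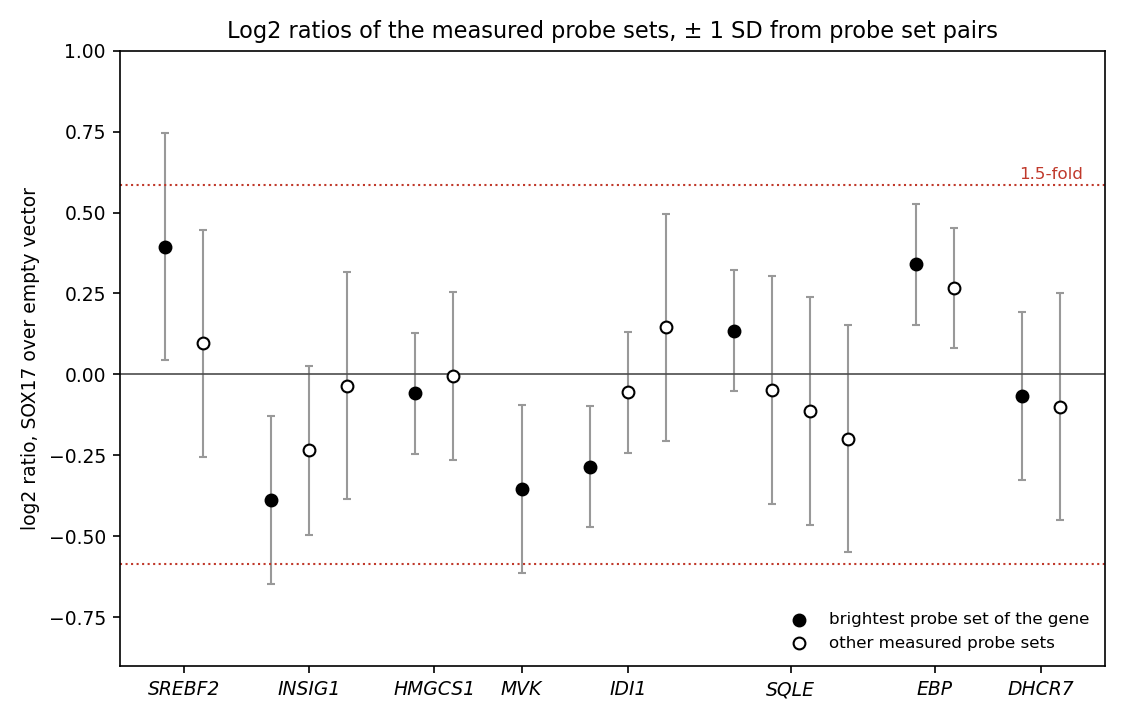
Log2 ratio of SOX17 over empty vector for the 19 measured probe sets, by gene, with ± 1 SD from probe set pairs and dotted lines at 1.5-fold. All points lie between -0.39 and 0.39, and SQLE and IDI1 have points on both sides of 0.

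By the brightest probe set, from highest to lowest log2 ratio, the order was SREBF2, EBP, SQLE, HMGCS1, DHCR7, IDI1, MVK and INSIG1. In 0 of the 7 pairs of neighbours was the difference larger than 1 SD, the largest being 0.22. Both ends change with the probe sets used. With the mean over measured probe sets EBP (0.30) stood above SREBF2 (0.25, one of whose probe sets was not measured) and MVK (-0.35) below INSIG1 (-0.22), and without IDs ending in _x_at or _s_at SREBF2 (0.10) stood below EBP (0.34) and SQLE (0.14). The ends of a sorted order are always at least as far apart as its neighbours, so their distance by itself is no result. By the brightest probe sets SREBF2 exceeded INSIG1 by 0.78 ± 0.44 in log2 ratio, and EBP exceeded INSIG1 by 0.73 ± 0.32 (SD from probe set pairs, with no test). These pairs were picked as extremes after the values were seen, which the SD does not allow for. Over the 19 measured probe sets 6 had a log2 ratio above 0 and 13 below, with a median of -0.06, against 48.9% below 0 among all measured probe sets. Of those 19, 6 lay further than 1 SD from 0 and 0 further than 2 SD, and 38.7% of all measured probe sets lay further than 1 SD.

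**Figure D3:**
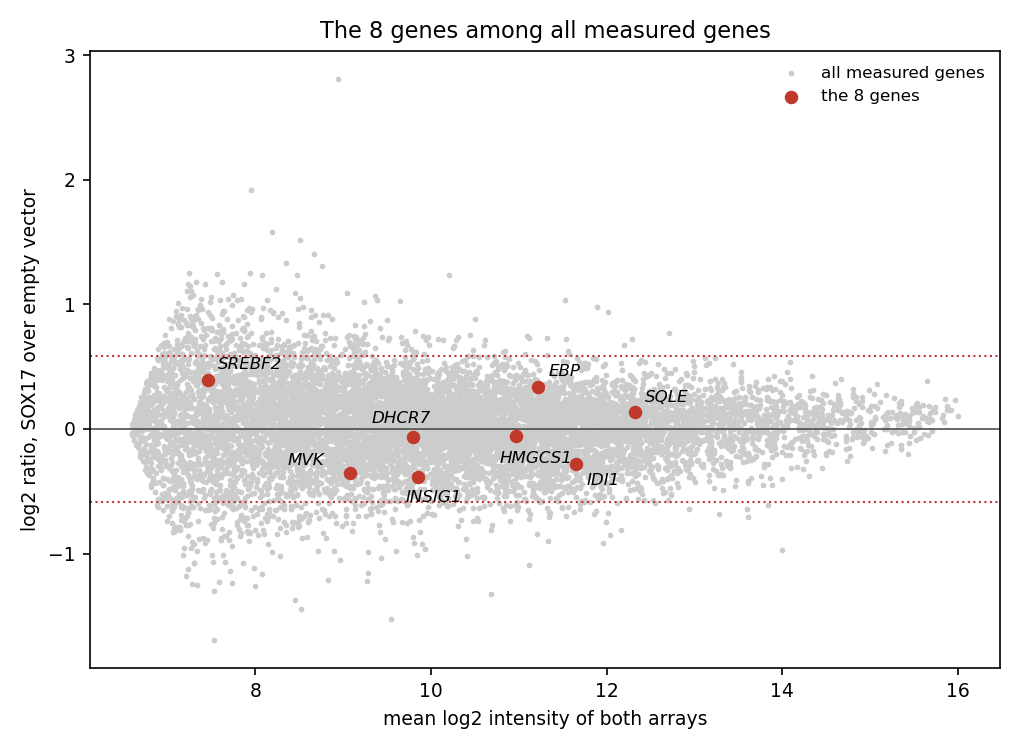
Log2 ratio of SOX17 over empty vector against the mean log2 intensity of both arrays for the 10034 measured genes (grey) and the 8 genes (red), with dotted lines at 1.5-fold. The 8 genes lie within the main cloud at their levels, and the scatter is widest among dim genes such as SREBF2.

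The other measured enzymes of cholesterol synthesis also stayed within 1.5-fold. Of 15 listed, 11 had a named probe set and 9 were measured, with 6 above 0, 3 below, 0 past 1.5-fold and a median of 0.16. Over all measured genes 54.6% lay above 0, with a median of 0.03, and 3.78% were higher and 3.19% lower by 1.5-fold. The count of 0 is thus close to what that background gives for so few genes. HSD17B7, a sterol ketoreductase, read 1842.5 on the SOX17 array and 1491.8 on the empty vector array (log2 ratio 0.30), but its 1 probe set ends in _x_at. MSMO1, the sterol methyl oxidase, had a log2 ratio of 0.21, the lanosterol synthase LSS of 0.20 and the sterol dehydrogenase NSDHL of 0.18. MVD and TM7SF2 were below the floor, and the other 4 listed genes were not analysed here.

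Of the 5 genes that process SREBP all were measured, and 2 were past 1.5-fold, both higher on the SOX17 array, against 3.78% of all measured genes higher and 3.19% lower by that size. SCAP, the escort protein, read 371.2 on the SOX17 array and 224.9 on the empty vector array, a log2 ratio of 0.72 ± 0.35 on its only probe set. MBTPS1, the protease that makes the first cut, read 753.2 on the SOX17 array and 460.7 on the empty vector array on its brightest probe set (0.71 ± 0.26). Its other probe set went the opposite way, at 130.5 on the SOX17 array and 162.3 on the empty vector array (-0.31), and their mean of 0.20 does not pass 1.5-fold. SREBF1, which encodes the SREBP-1 proteins, had a log2 ratio of 0.14, INSIG2 of -0.12 and MBTPS2 of 0.08.

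Of the genes of cholesterol uptake and transport 4 of 7 listed were measured, all within 1.5-fold, with 3 of these above 0 and a median of 0.08. Few genes pass that fold at all, with 3.78% of all measured genes higher and 3.19% lower by it. The sterol carrier STARD4 had a log2 ratio of -0.29 ± 0.26, the lysosomal cholesterol exporters NPC2 and NPC1 of 0.16 and 0.14, and TMEM97 of 0.03 with 4 probe sets from -0.44 to 0.03. Of 8 measured fatty acid targets of SREBP, 5 were above 0, 3 below, and the median was 0.09, against 54.6% above 0 and a median of 0.03 over all measured genes. In each direction 1 was past 1.5-fold, against 3.78% of all measured genes higher and 3.19% lower. ELOVL6, a fatty acid elongase and a known SREBP-1 target, was lower on the SOX17 array on all 3 of its probe sets. Probe set 204256_at read 3471.2 on the SOX17 array and 6107.6 on the empty vector array, a log2 ratio of -0.82 ± 0.19 (1.76-fold lower). The other two read 1303.6 and 177.9 on the SOX17 array, against 1811.7 and 366.4 on the empty vector array (-0.47 and -1.04). ACSS2, which makes acetyl-CoA from acetate, was higher, at 239 on the SOX17 array and 136.5 on the empty vector array (0.81 ± 0.35, 1 probe set), as were within 1.5-fold the fatty acid synthase FASN (0.35) and the carboxylase ACACA (0.19). FADS2, a fatty acid desaturase, read 160.4 on the SOX17 array and 76.5 on the empty vector array, at least 1.69-fold higher with SOX17 against the floor. The other 4 measured genes of the list are given here after their values were seen. SCD lay at 0.15 (4 probe sets from 0.15 to 0.89) and ME1 at -0.14. ACLY lay at -0.15 (3 probe sets from -0.15 to 0.06) and LPIN1 at 0.03 (2 measured probe sets, from -0.19 to 0.03).

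**Figure D4:**
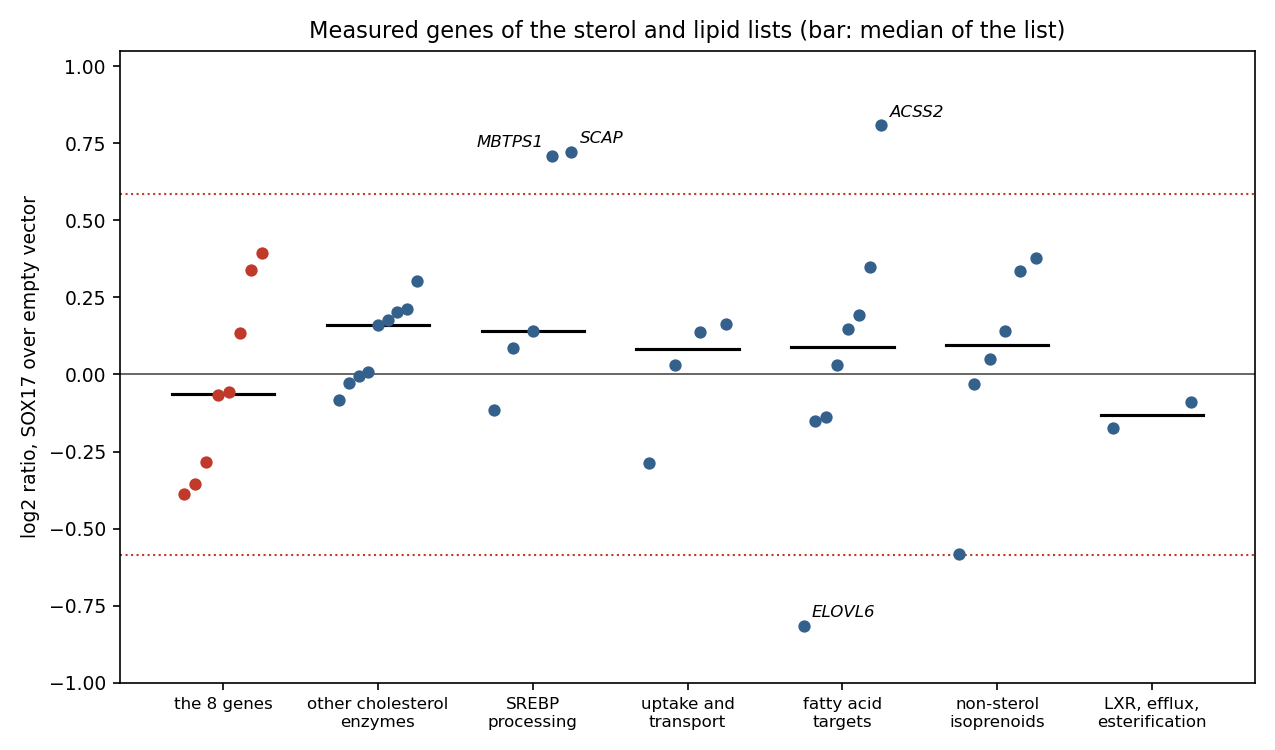
Log2 ratio of SOX17 over empty vector for each measured gene of the sterol and lipid lists, with the median of each list as a bar and dotted lines at 1.5-fold. The genes past 1.5-fold are SCAP, MBTPS1, ACSS2 and ELOVL6, and none of the 8 genes in the leftmost column is among them.

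The branch that leads from mevalonate to non-sterol isoprenoids had 4 of 6 measured genes above 0 and a median of 0.09, with 0 past 1.5-fold. Among all measured genes 54.6% lay above 0, and 3.78% were higher and 3.19% lower by that fold. PGGT1B, a subunit of the geranylgeranyl transferase, lay close to that fold, at 2017.4 on the SOX17 array and 3018.7 on the empty vector array (log2 ratio -0.58), with 3 probe sets from -0.87 to 0.09. The geranylgeranyl diphosphate synthase GGPS1 had a log2 ratio of 0.38 and its 2 probe sets agreed in sign. COQ2, of coenzyme Q synthesis, had a log2 ratio of 0.34 on its 1 measured probe set. Its dim probe set 232126_at went the other way, at 81.7 on the SOX17 array, under the floor, and 142.1 on the empty vector array. DHDDS, of dolichol synthesis, had a log2 ratio of 0.14 on its brightest probe set and -0.38 on the other, with a mean of -0.12. Of the genes of LXR response, efflux and esterification 2 were measured, the ubiquitin ligase MYLIP at -0.17 (3 probe sets from -0.53 to 0.60) and the esterifying enzyme SOAT1 at -0.09 (3 probe sets from -0.92 to -0.09).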

How the data were processed

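RNA was measured on 2 Affymetrix arrays, per the labels' protocols, 1 per group, with groups taken from the sample titles. The deposited values are linear intensities, for which the submitters' processing notes name GCOS as the tool. Algorithm, settings and detection calls are not given in the sources used here. The trimmed means of both arrays are equal, as they would be after scaling to a common mean, and the values were used as deposited.

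Of 54675 probe sets, 62 controls were left out of all gene counts. Genes were named from the platform annotation, and all 8 symbols are current in RefSeq. From the deposited intensities the log2 ratio of SOX17 over empty vector was computed for each probe set. The pair SD is the root mean square difference between the log2 ratios of the 2 brightest measured probe sets of a gene, divided by the square root of 2. A probe set that reached the floor on a single array has as its bound the brighter intensity over the floor. Without replicates no test was made, and precision is limited by having 1 array a group. Genes were counted by size, at 1.5-fold and 2-fold.

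The named genes are the 8 genes, every listed gene past 1.5-fold, up to 4 measured genes of each list with the largest absolute ratio, and SOX17. Outside that rule, MBTPS2, SCD, ACLY, ME1, LPIN1, FADS2, the unmeasured MVD and TM7SF2 and the measured squamous markers are named too, after their values were seen. The members, lists and settings were chosen with earlier results of these data known. Alternatives were median centring, quantile normalization, loess (span 0.4), the mean over probe sets, a floor at percentile 50, at percentile 75 or no floor, and leaving out probe sets ending in _x_at or _s_at. Work was done with pandas 2.3.3, numpy 2.4.6, statsmodels 0.14.6, scipy 1.17.1 and matplotlib 3.10.9 under Python 3.11.15, and the computation was tested on simulated data.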

Additional observations from a re-analysis of the deposited data

How the results depend on the processing

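Under all 8 alternatives, 0 of the genes with a value were past 1.5-fold. Of 61 gene values recomputed, 59 moved by less than 1 pair SD, but many of the 61 could not move. A change of floor leaves the ratio of a brightest probe set as it is. Leaving out probe sets does the same wherever the brightest one stays. The mean over probe sets moved SQLE to -0.06 and IDI1 to -0.06, and SQLE was the 1 gene whose sign turned. Leaving out IDs that end in _x_at or _s_at, SREBF2 stood at 0.10, and IDI1 and DHCR7 had no value. The median of the 6 genes left was then 0.02, against -0.06 over all 8 as reported. With the floor at the 75th percentile SREBF2 had no value. The median of the other cholesterol enzymes ran from 0.06 to 0.18. Centring put PGGT1B past 1.5-fold, and no other list gained or lost a count past 1.5-fold under the 3 scalings. The share of all measured genes at least 1.5-fold higher ran from 1.43% with the highest floor to 21.4% with none, and at least 1.5-fold lower from 1.79% to 14.6%. No paired analysis was possible because each group is 1 array.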
